A study of Mus musculus with 22 samples.

Results

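The collagen genes are all genes of this mouse array whose probes carry a symbol of the form Col, a type number, the letter a and a chain number. They number 43 genes on 86 probes, of 27352 genes on 41174 probes in all. By type, 11 were fibrillar (Col1a1, Col1a2, Col2a1, Col3a1, Col5a1, Col5a2, Col5a3, Col11a1, Col11a2, Col24a1 and Col27a1), 9 belonged to basement membranes or their anchorage (Col4a1 to Col4a6, Col7a1, Col15a1 and Col18a1) and 23 to other types. At least 1 probe was well above background, as the scanner software calls it, on at least 1 array for 40 of the 43 genes, and Col4a3, Col6a6 and Col10a1 were well above background on none.

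The study followed primordial germ cells (PGCs), the embryonic founders of eggs and sperm, as they turned into pluripotent embryonic germ cells (EGCs) in culture, and each of its 22 groups has 1 array. The uncultured PGCs were SSEA-1-positive cells from E11.5 embryos, SSEA-1 being a surface carbohydrate of germ and pluripotent cells. For all cultured PGCs and for the EGC line the labels give that same embryonic day. The 11 arrays of cultured PGCs, also SSEA-1 positive, were day 1 with bFGF (basic fibroblast growth factor), day 2 with bFGF, days 2, 3 and 6 with bFGF, 2i and A83-01, day 10, and 5 more arrays at day 2. Those 5 had bFGF with the MEK inhibitor PD325901 at 1 µM, with the GSK inhibitor CHIR99021 at 3 µM, with A83-01 at 250 nM, with 4-hydroxytamoxifen (4OHT) at 100 nM, or with all of them. 2i means both kinase inhibitors, A83-01 blocks the activin and TGF-beta type I receptors, and 4OHT was used, per the labels, to activate AKT. The label of the day 10 array names no addition, and the labels do not say which cells carry the construct that 4OHT acts on. The 10 arrays of pluripotent lines were an SSEA-1-positive embryonic stem cell (ESC) line, an SSEA-1-positive EGC line, the parental EBRTcH3 ESC line, and GFP-positive EBRTcH3 cells forced to express Blimp-1, Dnd, Nanos3, Nanos2, Prdm14 or Vasa, or GFP alone. The parental label names no sort, and another label of the Dnd array spells the gene End. Among the lines, an EF1a construct and a time point, day 2, are named for the GFP and Blimp-1 arrays alone. The growth medium given for all cells held knockout serum replacement and LIF. The labels do not say whether any samples came from separate animals or cultures of 1 condition.

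Collagens are triple-helical proteins of the extracellular matrix, each molecule wound from 3 alpha chains of the same or different genes. Types I, III and V assemble into the fibrils of connective tissue, where fibroblasts and related mesenchymal cells are the main source, while type IV forms the network of basement membranes and type VI forms beaded filaments around cells. Early embryos deposit mainly type IV collagen and laminin, and germ cells migrate through matrix that neighbouring somatic cells lay down.

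Promoters of 5 chains that the results below turn on are shown, because Col1a2, Col3a1 and Col8a1 are among the chains with the widest range over the arrays and because Col4a1 and Col4a2 lie head to head and were both higher in cultured PGCs than in lines. They are RefSeq sequences on GRCm38.p6, each from 250 bases before the gene's start to 50 bases after it. RefSeq held a promoter for 35 of the 43 genes. Capitals in the first 3 mark the CCAAT box, the GC box core GGGCGG and the TATA box letters TATAAA on either strand, and capitals in the last 2 mark the 78 bases that both windows share. Col1a2 lies at chr6:4505368-4505667 on the plus strand and holds CCAAT 109 bases before the start, ATTGG at the start and GGGCGG 205 and 188 bases before it.
Col1a2: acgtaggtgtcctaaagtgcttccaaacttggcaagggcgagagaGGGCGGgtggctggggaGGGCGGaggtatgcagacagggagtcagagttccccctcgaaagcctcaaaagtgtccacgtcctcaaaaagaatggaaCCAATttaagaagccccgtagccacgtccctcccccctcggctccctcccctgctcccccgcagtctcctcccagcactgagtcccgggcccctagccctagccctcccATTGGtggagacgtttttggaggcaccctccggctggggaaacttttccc
Col3a1 lies at chr1:45311288-45311587 on the plus strand, with TATAAA 117 bases before the start.
Col3a1: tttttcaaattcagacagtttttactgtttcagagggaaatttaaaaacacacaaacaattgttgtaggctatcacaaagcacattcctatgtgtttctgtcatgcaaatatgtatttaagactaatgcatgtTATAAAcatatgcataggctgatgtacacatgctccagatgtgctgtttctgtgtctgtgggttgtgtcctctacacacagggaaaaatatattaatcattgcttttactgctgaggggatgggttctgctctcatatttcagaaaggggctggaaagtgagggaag
Col8a1 lies at chr16:57754688-57754987 on the minus strand, with CCGCCC, the reverse of GGGCGG, 170, 73, 66 and 23 bases before the start.
Col8a1: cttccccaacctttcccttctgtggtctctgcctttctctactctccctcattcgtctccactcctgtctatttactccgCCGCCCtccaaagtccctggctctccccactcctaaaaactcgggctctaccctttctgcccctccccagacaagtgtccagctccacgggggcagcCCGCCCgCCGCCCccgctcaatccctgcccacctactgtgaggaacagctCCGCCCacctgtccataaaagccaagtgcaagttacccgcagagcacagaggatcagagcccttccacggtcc
Col4a1 lies at chr8:11312777-11313076 on the minus strand and Col4a2 at chr8:11312555-11312854 on the plus strand, and their starts are 21 bases apart.
Col4a1: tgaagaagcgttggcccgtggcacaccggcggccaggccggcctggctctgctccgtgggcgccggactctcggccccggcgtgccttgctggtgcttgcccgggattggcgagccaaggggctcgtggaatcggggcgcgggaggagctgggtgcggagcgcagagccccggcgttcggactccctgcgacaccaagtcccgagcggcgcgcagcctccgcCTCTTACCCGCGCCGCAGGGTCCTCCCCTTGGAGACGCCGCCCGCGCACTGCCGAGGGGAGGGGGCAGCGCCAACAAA
Col4a2: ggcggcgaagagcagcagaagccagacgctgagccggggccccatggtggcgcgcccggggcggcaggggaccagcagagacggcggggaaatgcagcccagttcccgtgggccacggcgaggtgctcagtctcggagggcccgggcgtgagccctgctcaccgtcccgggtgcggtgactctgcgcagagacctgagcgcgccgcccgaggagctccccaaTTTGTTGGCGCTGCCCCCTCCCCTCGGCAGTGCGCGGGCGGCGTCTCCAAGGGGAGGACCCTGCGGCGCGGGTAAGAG
CCAAT was found in 13 of 38 collagen promoters and in 37.41% of all 32851 promoters, GGGCGG in 23 of 38 and in 35.66%, and TATAAA in 5 of 38 and in 13.62%. These matches describe letters and not bound factors. Other collagen pairs are neighbours too. Col4a3 and Col4a4 overlap on chromosome 1, yet Col4a4 was well above background on all 22 arrays and Col4a3 on none. Col4a5 and Col4a6 lie 1274 bases apart on chromosome X. Col3a1 and Col5a2 lie 24624 bases apart on chromosome 1, and Col6a1 and Col6a2 85161 bases apart on chromosome 10.

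A level below is the log2 intensity of a probe minus the log2 of its array's 75th percentile, so 0 is that percentile and 1 unit is 2-fold. Levels are compared between arrays for a probe, not between genes. Array quality differed: 44.4 to 64.7% of probes were well above background, and 75th percentiles ran from 124 to 782. The arrays lay on 10 slides, and no slide held both cultured PGCs and a line. Both 4OHT arrays shared a slide of their own and stood apart, with 53.7 and 44.4% of probes well above background, so 4OHT and slide cannot be told apart and results that rest on them are given with and without them. Of the markers of the labelled cells, all 8 germ cell markers were well above background on the uncultured array and 7 or 8 on each cultured array. All 8 were so on each of the 10 lines too, so this count does not tell PGCs from lines. Their summed level was 20.5 on the uncultured array, -5.97 to 14.8 on the cultured arrays and -0.84 to 7.61 on the lines. All 5 pluripotency markers (Pou5f1, Nanog, Sox2, Zfp42 and Esrrb) were well above background on all 22 arrays.

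Cultured PGCs had higher levels than the pluripotent lines of the fibril chains Col1a1, Col1a2, Col3a1, Col5a1 and Col5a2, of the beaded filament chains Col6a1 to Col6a3 and of the type IV chains Col4a1, Col4a2 and Col4a5. Col2a1, Col24a1, Col4a4 and Col6a4, of the same classes of collagen, were lower on the probe chosen for each, that with the highest mean level. Another Col2a1 probe was higher, and another probe each of Col5a1 and Col6a4 did not pass. Tested with limma in a model with 3 classes of array (cultured, uncultured and lines), 39 collagen genes were above background on at least 1 array, and at a Benjamini-Hochberg adjusted p under 0.05 16 of them were higher in cultured PGCs, 9 were lower and 14 passed in neither direction. Over all 21771 genes tested, 15.9% were higher and 26.7% were lower, or 42.6% in either direction. At an unadjusted p under 0.05 in limma 25 of the 39 collagens passed, beside 49.7% of all genes. Of the calls, Col14a1, Col17a1 and Col8a2 entered the test only through the class where they were high, so the filter itself favoured a difference. Among genes well above background on at least 1 array of each class, a limit set after seeing the data, 14 of 33 collagens were higher and 8 lower, beside 17.2 and 29.7% of 18113 genes. The median difference was 0.18 over the collagens and -0.33 over all genes, so differences are read against that shift. With 1 array a group, the p-values measure only the spread between arrays of a class, which differ in day, addition or construct. The number of arrays limits the precision. Most of the lines are EBRTcH3 cells and most cultured arrays are day 2 cultures, but limma counted each array as independent. The p-values may therefore be too small. With the ESC, EGC and parental lines alone, limma called 7 collagens higher and 0 lower, on fewer arrays.

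**Figure D1:**
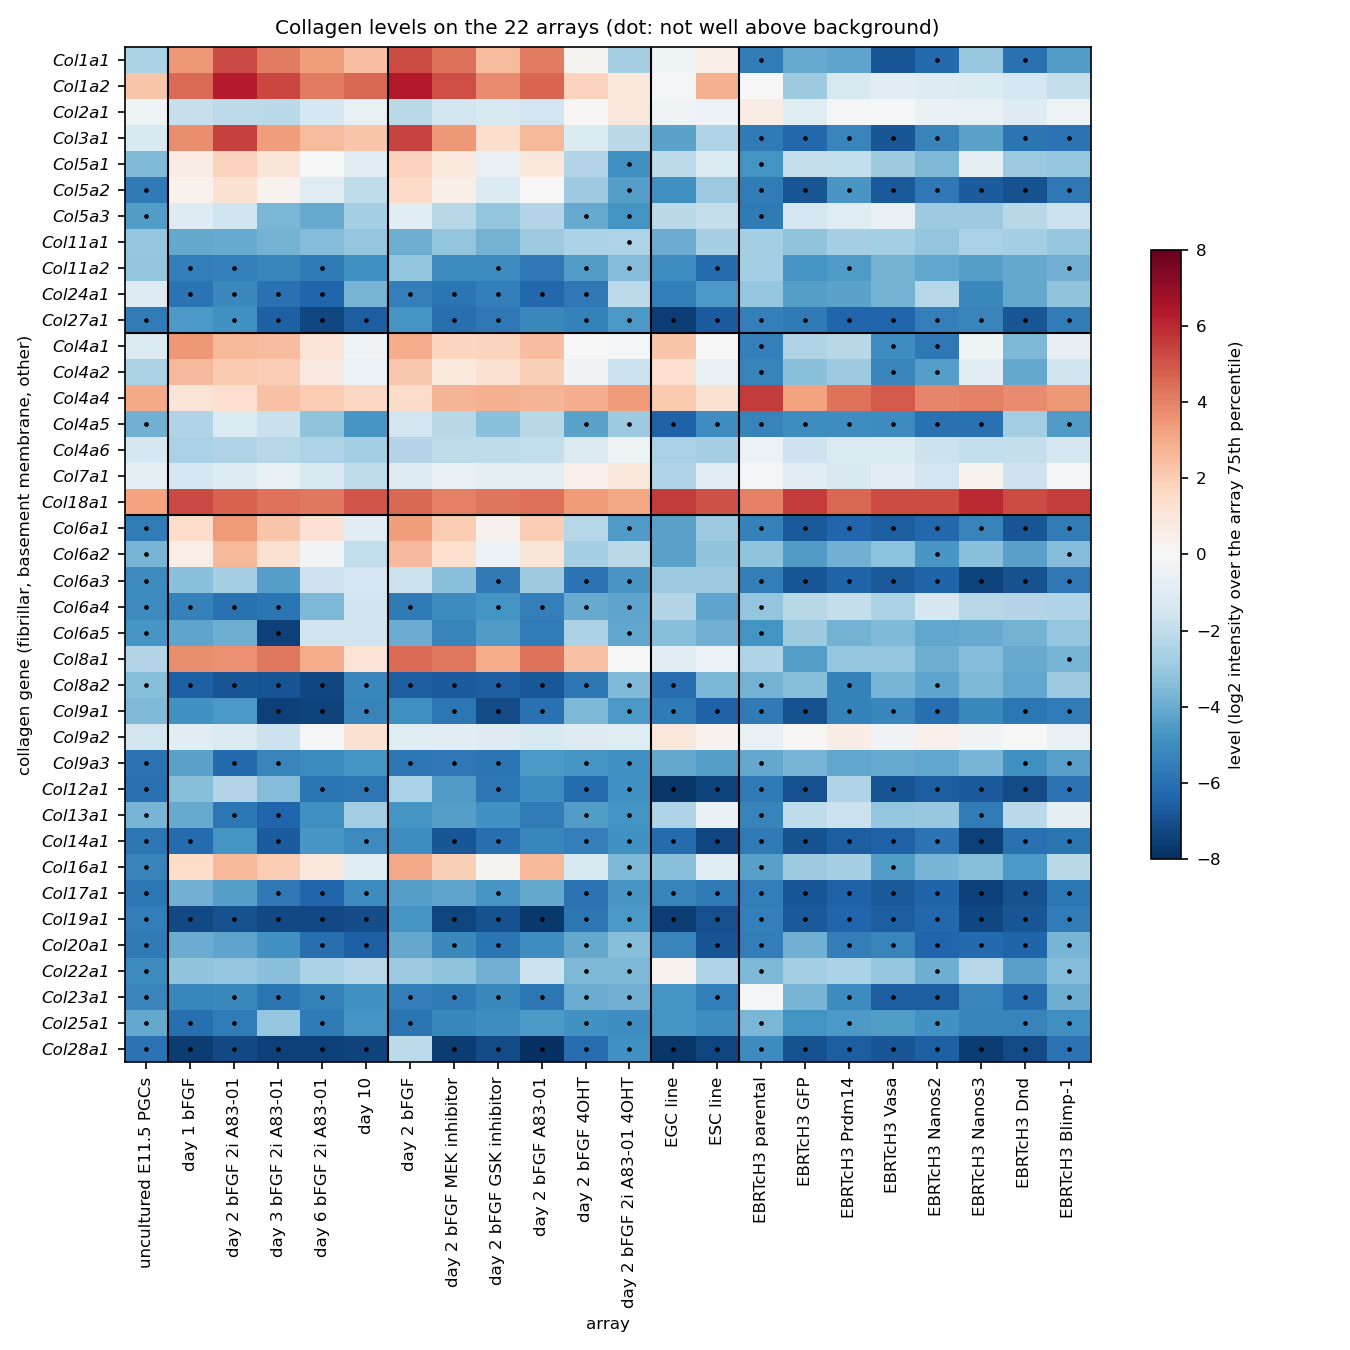
Levels (colour, log2 intensity over the array 75th percentile) of the collagen genes whose chosen probe was well above background on at least 1 array (rows, by type) on the 22 arrays (columns), with black dots where the probe was not well above background. Col1a1, Col1a2, Col3a1, Col6a1 and Col8a1 are red in most cultured PGC columns, and Col1a1 and Col3a1 are blue with many dots in the EBRTcH3 columns.

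Among the fibrillar chains, 5 of 11 were higher in cultured PGCs on their chosen probes (Col1a1, Col1a2, Col3a1, Col5a1 and Col5a2). Col2a1 and Col24a1 were lower on theirs. Over all genes tested, the shares were 15.9% higher and 26.7% lower. Col3a1, the single chain of type III collagen, had levels of -2.14, 2.63 and 5.49 (lowest, median and highest) on the 11 cultured arrays and of -6.87, -5.50 and -2.38 on the 10 lines. Every cultured array exceeded every line, and only 3 of the lines were well above background. The difference was 7.67 ± 0.790 (log2, SE), or 203-fold, with a limma adjusted p of 2.15e-07. Col1a1, the main chain of type I collagen, had levels of -2.67, 3.47 and 5.30 in culture and of -6.83, -4.35 and 0.52 in lines. The classes overlapped because both 4OHT arrays lay below the ESC line, and the difference was 6.97 ± 0.980 (adjusted p 8.78e-06, limma). Its partner Col1a2 was well above background on all 22 arrays, with levels of 0.87, 4.58 and 6.35 in culture and -2.85, -1.09 and 2.86 in lines, the highest line being the ESC line. The Col1a2 difference of 5.10 ± 0.657 had a limma adjusted p of 3.3e-06.

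Type V collagen starts fibrils and sets their width. Its Col5a2 chain had levels of -4.38, 0.03 and 1.50 in culture against -6.94, -5.73 and -2.96 in lines, where 2 of 10 arrays were well above background. The difference was 4.98 ± 0.644 (adjusted p 3.42e-06, limma). Col5a1 had levels of -4.91, 0.58 and 1.85 in culture and -4.75, -2.45 and -0.81 in lines, and its smaller difference of 2.34 ± 0.678 (adjusted p 0.00792) did not pass with slide as a random block. The classes overlapped for Col5a1, whose lowest cultured array, with 2i, A83-01 and 4OHT, lay below every line. Col5a1 was not well above background on that array or on the lowest line, the parental one. The other Col5a1 probe, well above background on all 22 arrays, gave 0.19 ± 0.310 and did not pass. Col2a1, the cartilage chain, had levels of -2.18, -1.51 and 0.84 in culture and -1.02, -0.45 and 0.59 in lines, and its difference of -0.84 ± 0.331 (adjusted p 0.044) was near the threshold. An overlapping Col2a1 probe gave 2.00 ± 0.702 (adjusted p 0.0252, limma), so the direction depends on the probe. Col24a1, a minor fibrillar chain, had a difference of -1.22 ± 0.472 (adjusted p 0.0407) and was well above background on 2 of 11 cultured arrays and all 10 lines. Col11a1 had a difference of -0.44 with an adjusted p of 0.13, and Col5a3, Col11a2 and Col27a1 passed in neither direction.

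Of the basement membrane genes, 7 could be tested. Col4a1 and Col4a2, the chains of the common type IV network, had levels in culture of -0.27, 1.78 and 3.44 and of -1.71, 1.25 and 2.61, and in lines of -5.71, -2.31 and 2.25 and of -5.36, -3.12 and 1.27. The classes overlapped for both: the EGC line was the highest line, and the ESC line, at -0.058 and -0.59, also lay above the lowest cultured array of each. The differences were 3.96 ± 0.840 (adjusted p 0.000646) and 3.72 ± 0.738 (adjusted p 0.00035, limma). Col4a5, a chain of the network found in kidney and other specialised membranes, differed by 2.41 ± 0.441 (adjusted p 0.000158) and was well above background on 9 cultured arrays and on 1 line. Over all genes tested in this comparison, 15.9% were higher in culture and 26.7% lower. Of 8 markers of extraembryonic endoderm, which secretes type IV collagen, Gata6, Dab2 and Afp were higher in culture and 0 lower. Their summed level was -16.6 to -9.98 on the cultured arrays and -31.3 to -6.95 on the lines, highest in the EGC line, and their part was not tested. Lower in culture were Col4a4 by -1.43 ± 0.433 (adjusted p 0.0108) and Col18a1, the source of endostatin, by -0.89 ± 0.265 (adjusted p 0.0092). Col18a1 had levels of 3.06, 4.35 and 5.28 in culture and of 4.05, 5.22 and 5.94 in lines and was well above background everywhere. Col7a1, of anchoring fibrils, had a median level of -0.77 in culture and of -0.86 in lines and did not pass.

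Among the 21 tested genes of other types, 8 were higher and 5 lower, beside 15.9 and 26.7% of all genes tested. The type VI chains that build beaded filaments were Col6a1 at -4.55, 1.48 and 3.39 in culture against -6.84, -5.94 and -2.90 in lines, and Col6a2 at -2.68, 0.54 and 2.63 against -4.67, -3.66 and -3.19. Cultured arrays lay above all lines for Col6a2, and for Col6a1 all but the array with 2i, A83-01 and 4OHT did. Their differences were 6.37 ± 0.804 (adjusted p 2.66e-06) and 3.97 ± 0.572 (adjusted p 1.16e-05, limma). Col6a3 differed by 2.38 ± 0.651 (adjusted p 0.00542), while Col6a4, a separate type VI chain, was lower by -2.21 ± 0.446 (adjusted p 0.000398) on its chosen probe and not on its other one.

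Col8a1, a chain of the short-chain network type VIII, had levels of -0.05, 3.67 and 4.52 in culture and of -4.38, -3.28 and -0.46 in lines. No cultured array reached down to a line, and the difference was 6.04 ± 0.573, or 65.6-fold (adjusted p 7.94e-08, limma). Its partner chain Col8a2 went the other way: it was not well above background on any cultured array but was so on 6 of 10 lines. The lines were at least 4.45-fold higher for Col8a2. Here "at least" sets the mean of the brighter class against, on each array of the dim one, the higher of the probe's own signal and the dimmest signal that counted as well above background. Col16a1, a fibril-associated chain, had levels of -3.57, 1.45 and 3.00 in culture and of -4.59, -3.37 and -0.96 in lines and differed by 4.07 ± 0.683 (adjusted p 6.44e-05).

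Col12a1 (1.83 ± 0.593, adjusted p 0.0162) was higher in culture and was well above background on 6 cultured arrays and on 1 line. Col17a1, an epithelial transmembrane chain, and Col14a1, which binds fibril surfaces, were not well above background on any line. Cultured PGCs were at least 2.76-fold higher for Col17a1 and at least 1.88-fold higher for Col14a1. Lower in culture were the transmembrane chain Col13a1 by -2.11 ± 0.560 (adjusted p 0.00424) and the type IX chains Col9a3 by -1.02 ± 0.229 (adjusted p 0.00107) and Col9a2 by -0.85 ± 0.283 (adjusted p 0.0188).

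**Figure D2:**
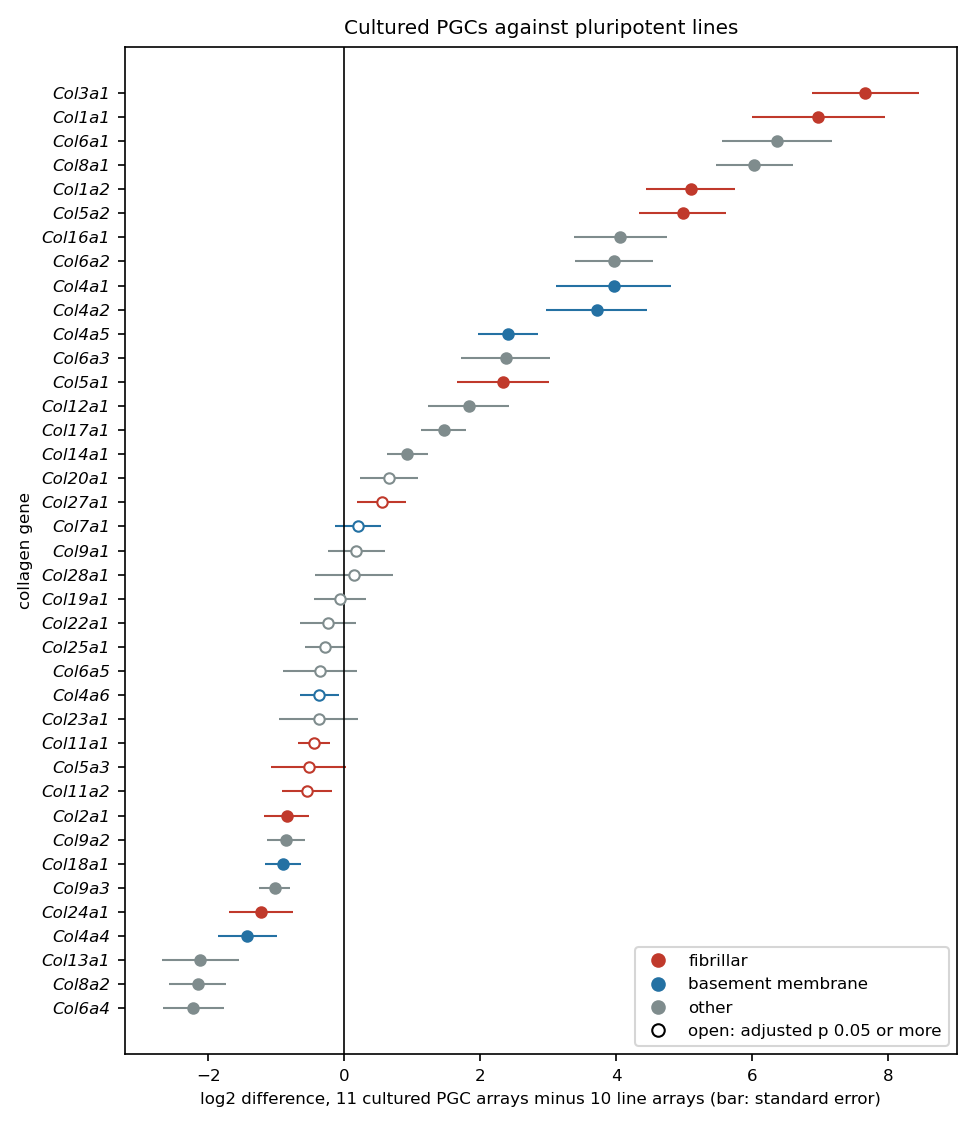
Log2 difference in level of each tested collagen gene between the 11 cultured PGC arrays and the 10 line arrays (x axis, bars 1 standard error), coloured by type and filled where the limma adjusted p was under 0.05. Col3a1, Col1a1, Col6a1 and Col8a1 lie beyond 6, and the largest decreases, of Col6a4, Col8a2 and Col13a1, lie between -2 and -2.3.

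All 11 cultured arrays lay above all 10 lines for 3 collagens (Col3a1, Col6a2 and Col8a1), while 1.78% of all genes tested did so. Without both 4OHT arrays these became 8 (adding Col1a1, Col1a2, Col5a2, Col6a1 and Col16a1), beside 2.37% of all genes. For no collagen did all cultured arrays lie below all lines, beside 1.51% of genes, or 2.91% without those 2 arrays. Without both 4OHT arrays 16 collagens were higher and 11 lower by the test. With the ESC, EGC and parental lines alone, 7 were higher (Col1a2, Col3a1, Col4a5, Col5a2, Col6a1, Col6a2 and Col8a1) and 0 lower by limma's adjusted p, and 15 in either direction had an unadjusted p under 0.05. With slide as a random block 12 were higher and 5 lower. The share of all genes called by the test is not given for these other settings.

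Between cultured PGCs and lines, most fibroblast markers went the way of the higher collagens. Over all genes tested, 15.9% were higher in culture and 26.7% lower. Of 11 fibroblast markers outside the collagen family (Dcn, Lum, Postn, Thy1, Pdgfra, Pdgfrb, Fbn1, Twist1, Fap, S100a4 and Loxl1), 8 were higher in cultured PGCs than in lines and Thy1 was lower. Their summed level ran from -17.7 to 0.79 on the cultured arrays without 4OHT, was -29.1 and -21.9 on the 4OHT arrays, -31.5 on uncultured PGCs and from -49.4 to -26.2 on the lines. Fap, a marker of activated fibroblasts, was well above background on the day 2 arrays with bFGF alone and with bFGF, 2i and A83-01 and on no other, and 8 to 11 of the 11 markers were so on each cultured array without 4OHT. None of 4 smooth muscle markers (Acta2, Tagln, Cnn1 and Myh11) passed, at unadjusted p either, and of 6 endothelial markers Flt1 was higher and Tek lower. The part of other cell types in the collagen differences was not tested, and in such bulk samples a change in the number of cells of a type and a change of RNA per cell cannot be told apart.

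Genes that make, process and bind collagen were read from lists of the pathway's steps. Counts in this and the next paragraph compare cultured PGCs with lines, where 15.9% of all genes tested were higher and 26.7% lower. Of 11 tested genes that trim or crosslink collagen, 8 were higher in cultured PGCs and Pcolce2, an enhancer of procollagen trimming, was lower (-1.61 ± 0.379). The higher ones included the crosslinking oxidases Loxl1 (4.54 ± 0.343) and Loxl2 (2.91 ± 0.572) and the N-propeptide and C-propeptide proteinases Adamts2 (4.11 ± 0.442) and Bmp1 (2.79 ± 0.507). Of 16 enzymes and chaperones of the endoplasmic reticulum, 3 were higher, among them the collagen chaperone Serpinh1 (2.59 ± 0.400) and Fkbp10 (1.65 ± 0.410), and the lysyl hydroxylase Plod2 was lower (-0.89 ± 0.199). The other 12 passed in neither direction.

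Of 9 collagen receptors, 4 were higher and 0 lower, and 5 had an unadjusted p under 0.05 in limma. The higher ones were the collagen receptor kinase Ddr2 (5.52 ± 0.743), the integrin chains Itga1 (2.92 ± 0.418) and Itgb1 (0.80 ± 0.228) and the endocytic receptor Mrc2 (2.84 ± 0.484). Of 7 collagenases and their inhibitors, 6 were higher, among them Timp2 (5.24 ± 0.646), Timp3 (4.79 ± 0.517) and the membrane collagenase activator Mmp14 (2.06 ± 0.439). Of 10 proteins that bind fibrils, 6 were higher, led by decorin (Dcn, 8.73 ± 0.900), and Comp was lower (-1.93 ± 0.325). Dcn, Lum, Fbn1 and Loxl1 are also on the fibroblast list. Basement membrane partners were split: Lamb3 (1.61 ± 0.440) was among the higher ones, and Lama1 (-1.61 ± 0.618), Lama5 (-0.96 ± 0.354) and Nid2 (-1.40 ± 0.262) were lower.

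Against uncultured PGCs, of which there is 1 array, 2 of 39 collagens were higher in culture and 1 lower, beside 1.83 and 2.56% of all genes, and 11 had an unadjusted p under 0.05, beside 19.6%. The median difference was 0.74 over the collagens and -0.52 over all genes. Col8a1 stood at -2.36 in uncultured PGCs, below every cultured array, and differed by 5.45 ± 1.37 (adjusted p 0.0233, limma). Col16a1 was not well above background there, so cultured PGCs were at least 71.5-fold higher (adjusted p 0.0315). Col24a1 was the reverse: its uncultured level of -1.05 was above all 11 cultured arrays, which ran from -6.32 to -2.09, and the difference was -4.23 ± 1.13 (adjusted p 0.0327). These calls depend on the scale: with slide as a random block, or with normexp background correction, limma called 0 collagens in either direction, and 9 had an unadjusted p under 0.05 in each.

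The lone array limits this comparison, and so do the 4OHT cultures. Col6a1 differed by 6.36 with an adjusted p of 0.0625, Col5a2 by 4.97 (0.0692), Col6a2 by 3.90 (0.11) and Col1a1 by 5.46 (0.198). Without both 4OHT arrays 8 collagens were higher (Col1a1, Col3a1, Col5a1, Col5a2, Col6a1, Col6a2, Col8a1 and Col16a1) and Col24a1 and Col8a2 were lower. Leaving out the array with 2i, A83-01 and 4OHT alone gave 6 higher and 2 lower, and leaving out the one with bFGF and 4OHT gave 4 higher. The share of all genes called is not given for these fits without 4OHT arrays, so their counts cannot be set against it. Of the pathway lists, Loxl1 and Pcolce, Timp1, Nid1 and Lama5, and Fn1 were higher in culture than on the uncultured array.

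Uncultured PGCs against the lines gave 2 collagens lower, Col18a1 by -2.02 ± 0.635 (adjusted p 0.0471) and Col9a3 by -1.76 ± 0.549 (adjusted p 0.0452), and 0 higher by limma, beside 4.12% lower and 5.37% higher of all genes, and 8 had an unadjusted p under 0.05, beside 22.8%. Col9a3 was not well above background in uncultured PGCs, and the lines were at least 3.15-fold higher. Both calls were lost on leaving out the array of day 3, of day 6, of the EGC line, or of the Vasa, Nanos2, Nanos3 or GFP line, and 1 of them on leaving out 9 other arrays in turn. Without both 4OHT arrays Col3a1 and Col24a1 were higher in uncultured PGCs than in lines, by 3.96 and 3.00. Blood markers were highest on this array: their summed level was -4.32, against -35.1 to -20.4 on cultured arrays, and their part in the collagen levels was not tested.

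Along the time course the collagens did not follow a steady line. The slope on log2(day + 1) over 6 arrays called 0 of 36 tested collagens in limma, beside 0.0535% of all genes, and 4 had an unadjusted p under 0.05, beside 12.4% of all genes. These were Col22a1, Col6a3 (slope 1.01 per unit, adjusted p 0.259), Col9a2 (slope 0.68) and Col6a4 (slope 0.98). Each level is that of a single array with no replicate check, so the steps are described by how many genes passed 2-fold.

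From uncultured PGCs to day 1, 21 of 33 collagens were at least 2-fold higher and 7 lower, beside 19.8 and 33.3% of all genes. Col1a1 went from -2.50 to 3.47, Col3a1 from -1.25 to 3.74 and Col8a1 from -2.36 to 3.71, which are 62.8-fold, 31.8-fold and 66.9-fold. Col4a1 went from -1.07 to 3.44 and Col4a2 from -2.54 to 2.61, and day 1 was the highest of the 22 arrays for both. Col6a1, Col16a1 and Col5a2 were not well above background before culture and were at least 137-fold, 111-fold and 61.3-fold higher at day 1. In the other direction Col24a1 went from -1.05 to -5.91, Col4a4 from 3.00 to 1.03 and Col2a1, on its chosen probe, from -0.41 to -1.85. This count depends on the background correction: with normexp, which lifts dim spots, 12 were higher and 12 lower, and with quantile normalization 21 and 5.

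The type I and III chains, Col6a1 and Col6a2 stood highest at day 2 of the course. On the slide that held days 1, 2 and 10, 10 of 32 collagens were at least 2-fold higher at day 2 with 2i and A83-01 than at day 1 and 2 lower, beside 4.35 and 6.91% of genes. Col1a1 reached 5.30, Col1a2 6.29, Col3a1 5.49, Col6a1 3.39 and Col6a2 2.63. The type IV chains did not share that step: Col4a1 was at 2.65 and Col4a2 at 2.09, each below its day 1 level.

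Later arrays held less of many of these chains. At day 3, 11 of 30 were at least 2-fold lower than at day 2 and 1 higher, beside 7 and 4.84% of genes. Between days 3 and 6, which shared a slide, 12 of 31 were lower and 6 higher, beside 8.48 and 14.2%. Between days 6 and 10, 8 of 31 were lower and 5 higher, beside 10.3 and 10.2%. Within 1 slide, day 10 against day 2 gave 15 of 35 lower and 8 higher, beside 15.6 and 22.4%. Col6a2 was 24.3-fold lower, Col6a1 19.4-fold, Col3a1 9.58-fold and Col4a1 7.57-fold. Col1a2 kept a level of 4.58 at day 10, which was 3.28-fold below day 2. With normexp the counts of lower genes in these 4 comparisons were 5, 9, 7 and 12.

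Another group of chains was highest late in the course. The chosen Col6a4 probe was not well above background up to day 3, was at -3.62 on day 6 and at -1.57 on day 10. Col6a3 had levels of -3.32, -2.63 and -4.40 on days 1, 2 and 3 and of -1.66 and -1.32 on days 6 and 10. Col6a5 stood at -4.23, -3.89, -7.47 (not well above background), -1.56 and -1.62 on the same days. Col9a2 went from -1.69 on day 3 to 1.19 on day 10 and Col13a1 from -6.36 to -2.78. The summed fibroblast markers were -8.63, -3.92, -14.3, -4.68 and -2.73 on days 1, 2, 3, 6 and 10. Among these the sum was highest at day 10, but the markers split. From day 2 to day 10 Thy1 (-5.08 to 1.33), Lum, Postn, Pdgfra and S100a4 rose. Dcn (7.12 to 3.76), Pdgfrb, Fbn1, Twist1, Fap and Loxl1 fell, and the median marker level was -0.56 at day 2 and -0.76 at day 10. Col1a1, Col1a2, Col3a1, Col4a1, Col4a2, Col6a1 and Col6a2 were lower at day 10 than at day 2, and the part of the markers was not tested.

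**Figure D3:**
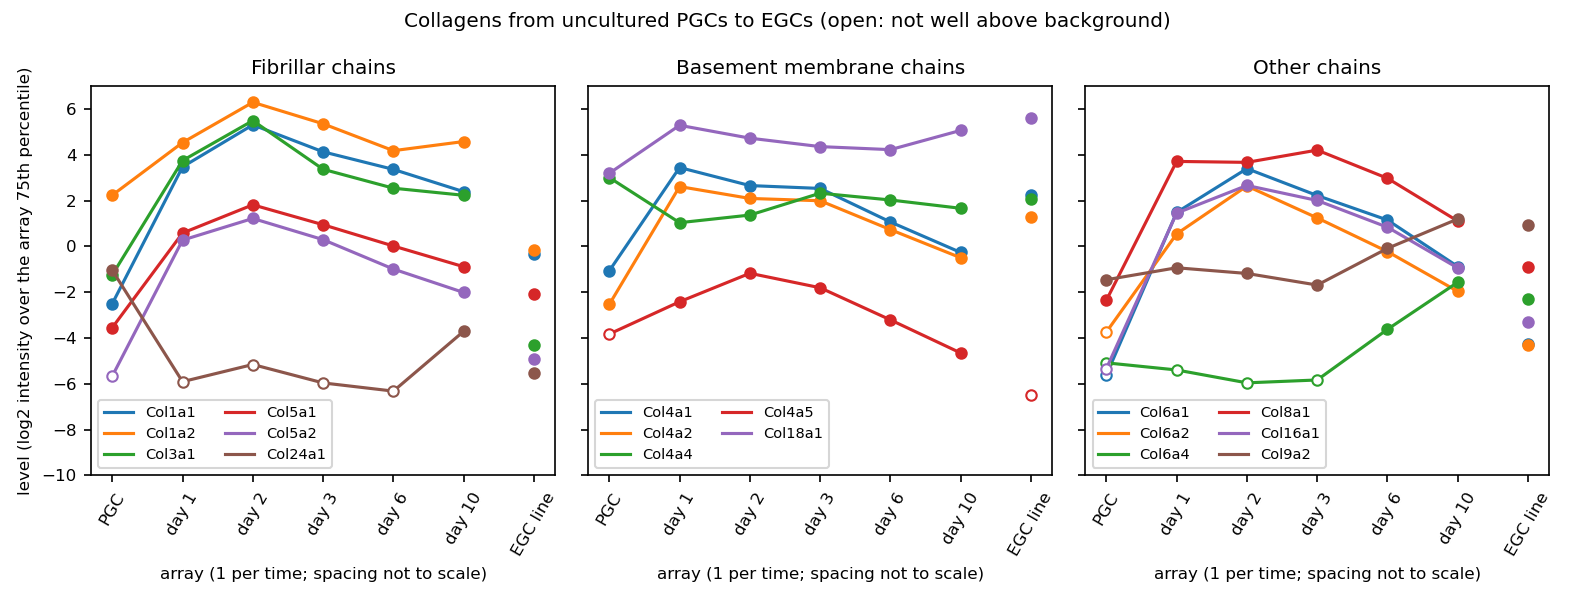
Levels of 17 collagen chains (y axis) on single arrays from uncultured PGCs through days 1 to 10 to the EGC line (x axis, spacing not to scale), with open circles where a probe was not well above background. The fibrillar chains Col1a1 and Col3a1 peak at day 2, Col4a1 and Col4a2 at day 1, and Col6a4 and Col9a2 are highest at day 10.

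In the EGC line, 13 of 31 collagens were at least 2-fold lower than at day 10 and 4 higher, beside 7.2 and 8.22% of genes. Col3a1 was at -4.30, a level 92.0-fold below day 10, and Col1a2 at -0.14, which is 26.2-fold below. Col4a1 and Col4a2 were instead higher, at 2.25 and 1.27 against -0.27 and -0.50, 5.73-fold and 3.42-fold. The extraembryonic endoderm markers were all well above background in the EGC line, where their summed level of -6.95 was the highest of the 22 arrays, against -13.3 at day 10, and their part was not tested. Col22a1 was at 0.25 in the EGC line, 5.82-fold above day 10 and the highest of the 22 arrays.

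The EGC and ESC lines differed in several collagens. Of 31, 6 were at least 2-fold higher in the EGC line and 10 lower, beside 16.6 and 7.47% of genes, and with normexp 4 were higher and 4 lower. Col4a1 was 4.95-fold higher, Col4a2 3.63-fold, Col22a1 6.27-fold and Col6a4 3.70-fold. Col1a2 was 8.02-fold lower, Col16a1 5.15-fold, Col5a2 3.91-fold, Col13a1 3.78-fold and Col3a1 3.76-fold, while Col1a1 levels were -0.34 and 0.52. The lines lay on different slides. Summed fibroblast markers were -30.0 in the EGC line and -26.2 in the ESC line, and summed extraembryonic endoderm markers were -6.95 and -26.4.

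At day 2 the additions were compared with bFGF alone. With bFGF alone 33 of 43 collagens were well above background, the most of the 22 arrays, and 13 of 35 were at least 2-fold higher than on the day 1 array of that slide and 1 lower, beside 4.95 and 6.34% of genes. 2i with A83-01, on that slide too, differed little from bFGF: 4 of 33 collagens were at least 2-fold lower and 0 higher, beside 3.02 and 2.38%. Col1a1 stood at 5.21 and 5.30, Col3a1 at 5.43 and 5.49 and Col6a1 at 3.34 and 3.39. The 4 lower genes, Col11a2, Col13a1, Col19a1 and Col28a1, were not well above background with 2i and A83-01. Col28a1 and Col19a1 were well above background only on the array with bFGF alone, at -2.09 and -4.74.

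Each single addition lay on another slide than bFGF alone, so addition and slide cannot be told apart in these differences. With the MEK inhibitor 19 of 35 collagens were at least 2-fold lower and 1 higher, beside 4.5 and 8.35% of genes. With the GSK inhibitor 20 of 34 were lower and 1 higher, beside 8.59 and 12.7%, and with A83-01 15 of 35 were lower and 4 higher, beside 6.66 and 9.84%. Col4a4 was the gene higher with each of the MEK and GSK inhibitors, at 2.74 and 2.86 against 1.44, and was at 2.73 with A83-01. With normexp the lower counts were 9, 13 and 10. These comparisons share the bFGF array.

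Within the slide of the 3 single additions the GSK inhibitor array had the lowest levels of Col1a1, Col1a2, Col3a1, Col5a1, Col5a2, Col6a1 and Col6a2. Of 29 collagens, 12 were at least 2-fold lower with the GSK than with the MEK inhibitor and 0 higher, beside 4.98 and 6.27% of genes. Against A83-01, 12 of 32 were lower and 1 higher, beside 8.07 and 9.23%. Col3a1 stood at 1.43 with the GSK inhibitor, 3.45 with the MEK inhibitor and 2.63 with A83-01, and Col1a1 at 2.56, 4.40 and 4.14. Col16a1 stood at 0.25, 1.90 and 2.66, and Col6a1 at 0.35, 2.03 and 1.97. The MEK inhibitor and A83-01 were closer, with 4 of 33 collagens at least 2-fold lower with the MEK inhibitor and 1 higher, beside 5.77 and 5.68%. The summed fibroblast markers were -17.7 with the GSK inhibitor, -8.42 with the MEK inhibitor, -14.0 with A83-01 and 0.79 with bFGF alone, and their part was not tested.

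The 4OHT arrays had the lowest levels of Col1a1, Col1a2, Col3a1, Col5a1 and Col5a2 of the 11 cultured arrays. With bFGF and 4OHT 20 of 33 collagens were at least 2-fold lower than with bFGF and 7 higher, beside 14.1 and 26.3% of genes, and with normexp 13 were lower and 10 higher. Col3a1 was at -1.11 (92.9-fold lower), Col6a1 at -2.31 and Col1a1 at 0.21 (32.0-fold). Col2a1 was higher on its chosen probe, at 0.10 (4.85-fold). With 2i, A83-01 and 4OHT 17 of 34 were lower and 5 higher, beside 19.5 and 35.3%, and Col1a1 was at -2.67 and Col3a1 at -2.14. Between both 4OHT arrays 10 of 21 were lower with 2i and A83-01 and 1 higher, beside 8.66 and 8.68%: Col1a1 was 7.37-fold lower, Col8a1 5.23-fold and Col3a1 2.05-fold. With normexp that balance turned, with 4 lower and 8 higher. With normexp, too, 19 were higher and 12 lower with 2i, A83-01 and 4OHT than with bFGF, so the count of higher genes on that dim array depends on the background correction.

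Fitted as additive terms over the 7 day 2 arrays, which leaves 2 residual degrees of freedom, no term called any of 37 collagens in limma, and 0% of all genes passed in each term. At an unadjusted p under 0.05 the 4OHT term had 20 collagens beside 46.9% of all genes, GSK and A83-01 had 2 each beside 4.7 and 3.71%, and MEK had 0 beside 3.21%. The lowest adjusted p for 4OHT was 0.0518, shared by Col1a1 (-5.45 ± 0.998), Col6a1 (-5.58 ± 1.04), Col16a1 (-4.38 ± 0.779), Col5a2 (-4.02 ± 0.808), Col8a1 (-2.65 ± 0.450) and Col4a1 (-2.40 ± 0.446). Col2a1 (2.15 ± 0.442) and Col7a1 (1.49 ± 0.307) had positive terms, with adjusted p of 0.0521. Over all 18715 genes the median 4OHT term was 0.58. For the GSK inhibitor the Col8a1 term was -1.37 ± 0.470 (adjusted p 0.904).

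**Figure D4:**
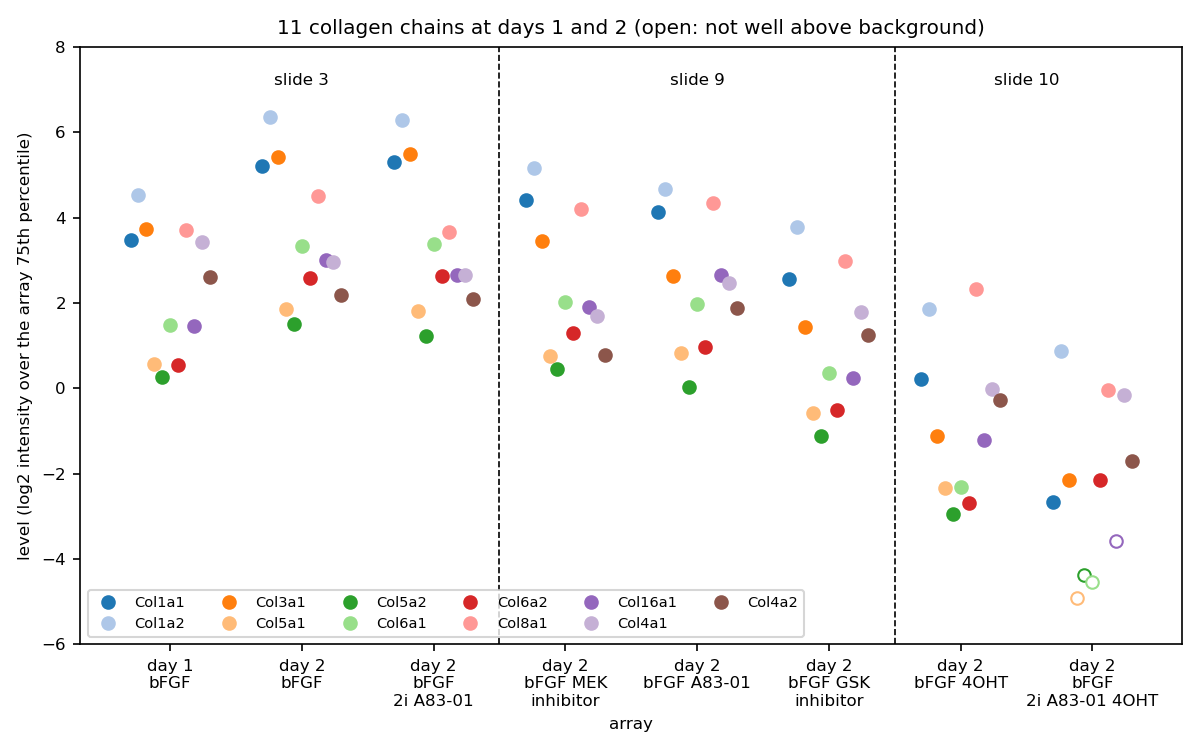
Levels of 11 collagen chains (y axis) on the day 1 array and the 7 day 2 arrays (x axis), grouped by slide, with open circles where a probe was not well above background. At day 2 Col1a1, Col3a1 and Col6a1 lie highest with bFGF alone and with bFGF, 2i and A83-01 and lower on the slide of single additions, and all 11 chains lie lowest on the slide of both 4OHT arrays.

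In EBRTcH3 ESCs Col18a1 and Col4a4 were bright and the type I and III chains Col1a1 and Col3a1 dim. Between 13 (parental) and 27 (GFP and Nanos3) of 43 collagens were well above background, against 14 to 33 on the cultured arrays. Col18a1 ran from 4.05 to 5.94, Col4a4 from 3.24 to 5.59, Col1a1 ran from -6.83 to -3.05 and Col3a1 was well above background on 1 of the 8 arrays. With slide as a fixed block, which leaves 4 residual degrees of freedom, no construct called any of 31 collagens in limma, beside 0.0106% of genes for Dnd and 0% for each of the others. At an unadjusted p under 0.05 Nanos3 had 5 beside 9.14% of genes, Prdm14 3 beside 6.24%, Dnd 1 beside 2.23%, Blimp-1 1 beside 4.76%, Nanos2 1 beside 2.88% and Vasa 0 beside 2.77%.

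Terms of chains in types IV, XII and XXIII were among the largest in size. A term sets an array against the mean of the other arrays on its slide. Nanos2, Nanos3 and Dnd shared a slide with neither the parental nor the GFP array, so their terms are against each other and not a control. Prdm14 and Vasa shared a slide with the parental array, and Blimp-1 with GFP. With Nanos3, Col4a1 stood at -0.32 and Col4a2 at -0.90, the highest of the 8 arrays, and their terms were 4.32 ± 1.53 and 3.34 ± 1.15 (adjusted p 0.481 and 0.466, limma). On the Nanos3 array the summed smooth muscle markers were the highest of the 22 arrays, at 12.7, and the summed pluripotency markers the lowest of the lines, at 17.3 against 20.6 to 27.8, and their part was not tested. Blimp-1 had the second highest Col4a1, at -0.63 against -2.38 with GFP on its slide, and both chains were 3.37-fold higher than with GFP. Col4a5 was well above background only with Dnd among the lines, at -2.80 (term 3.18 ± 0.432, adjusted p 0.102). Col12a1 was so only with Prdm14, at -2.41 (term 3.86 ± 0.689, adjusted p 0.378). Col23a1 had a Vasa term of -4.01 ± 1.74, against the parental array at -0.077 and the Prdm14 array at -5.03, and it did not pass.

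Against the parental array of its slide, Prdm14 gave 11 of 25 collagens at least 2-fold higher and 6 lower, beside 16.6 and 17% of genes. The parental array was dim, with 48.9% of probes well above background, and with normexp the counts were 1 and 3. Col23a1, a transmembrane chain, stood at -0.077 on the parental array and at -3.73 or below on every other line.

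Probes of 1 gene did not always agree. Each of 29 genes had several probes, and values above are from the probe with the highest mean level. Tested probe by probe, 42.9% of 33101 probes were called between cultured PGCs and lines. For Col1a1 (6.97, 4.80 and 3.84), Col4a1 (3.96 and 2.71), Col4a2 (3.72 and 3.14), Col8a1 (6.04 and 5.06) and Col18a1 (-0.89 and -0.90) all probes that could be tested had a difference of the same sign and passed. For Col3a1 the probes gave 7.67, 3.09 and 0.61, and the last was well above background on 3 arrays.

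Others did not. For Col4a6 the chosen probe, well above background on all 22 arrays, gave -0.36, while 2 other probes well above background on 7 and 10 arrays gave 2.15 ± 0.383 and 4.57 ± 0.657 (adjusted p 0.000123 and 1.21e-05, limma). These probes lie on the minus strand of chromosome X on mm9, at chrX:137601433-137601491 for the chosen one and at chrX:137600816-137600875 and chrX:137599990-137600049 for the others. For Col2a1 the chosen probe at chr15:97806505-97806564 gave -0.84 and another, overlapping it at chr15:97806485-97806544, gave 2.00 ± 0.702 (adjusted p 0.0252). For Col5a1 the other probe, well above background on all 22 arrays, gave 0.19 against 2.34, and for Col4a4 the other probe was well above background on 1 array. For Col6a4 the other probe, well above background on all 22 arrays against 12 for the chosen one, gave -0.75 ± 0.339 (adjusted p 0.0776, limma). For Col16a1 the other, well above background on 7 arrays, gave 1.00 ± 0.478 (adjusted p 0.0954) against 4.07. The direction for Col4a6 and Col2a1 therefore depends on the probe.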

How the data were processed

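Each array was hybridised with 1 colour. Per the file headers, the authors used Agilent's Feature Extraction software (10.7.3.1), and probe coordinates are on mm9. The intensities deposited for each spot had the background subtracted and a spatial trend removed, and no scaling across arrays. A table of intensities deposited for the whole series served as an alternative. No value column lacked a mapped sample.

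Outlier spots were left out and repeat spots averaged. Levels, as defined in the report, were computed on the log2 scale from the deposited intensities. RefSeq named 27576 probes by accession, 5499 by symbol and 634 by synonym, and the other 7465 bear the name in the file. On 18 arrays the files carry an earlier annotation that names 81 collagen probes and 41 genes, and on 4 arrays a later one that names all 86 and 43, which was used for all. Of several probes the one with the highest mean level over 22 arrays stood for the gene. Genes were tested where that probe was well above background on at least 1 array of the fit. This filter favoured a difference for a gene that passed through 1 class alone. Col19a1, Col27a1 and Col28a1 passed through cultured PGCs alone and were not called against the lines. All models used lmFit and eBayes of limma 3.58.1 under R 4.3.3, and tests were two-sided. The threshold was a Benjamini-Hochberg adjusted p-value under 0.05 over all genes tested, computed from the deposited intensities. Where a class had 1 array, its spread was taken to be that of the other arrays. Differences between 2 arrays have no test and were counted from 2-fold, over 23 pairs. Where a probe was dim on 1 side, the fold is a lower bound against the higher of its own signal and the dimmest one well above background on that array, and the counts use it.

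Named collagens were those past a threshold, the major fibrillar, type IV and type VI chains, Col15a1 and Col18a1, and up to 6 genes per pathway list. Members, lists and tests were chosen with earlier results of these data known. The fitting was tested on simulated data. One gene of the pathway lists is not reported here. Alternatives were background correction, normalization, probe choice, the filter, the deposited table, slide as a random block, time scale, classes entered and each array left out.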

Additional observations from a re-analysis of the deposited data

Results flagged for a closer look

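Among the 10 pluripotent line arrays, 39 collagens were checked for an array that stood apart from the rest (gap over range above Dixon's 95% critical value of 0.466), and 8 had one. Chance marks about 1 in 20 groups, and the 10 arrays are different lines and constructs. Col1a2 was highest in the ESC line at 2.86 (next -0.05), Col4a5 with Dnd at -2.80 (next -4.56), Col12a1 with Prdm14 at -2.41 (next -5.64) and Col22a1 in the EGC line at 0.25 (next -2.31). Col23a1 was highest on the parental EBRTcH3 array at -0.077 (next -3.73). Col11a1 was lowest in the EGC line at -3.97 (next -3.21). On the parental array Col5a3 was lowest at -5.64 (next -2.93) and Col25a1 highest at -3.64 (next -4.46), and neither was well above background there.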

How the results depend on the processing

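Between cultured PGCs and lines, the 16 higher collagens became 7 with the ESC, EGC and parental lines alone and stayed 16 with each array left out in turn. The 9 lower ones became 5 with normexp, 5 with slide as a random block and 0 with those 3 lines alone, and were 7 to 10 with an array left out. Against uncultured PGCs, the 2 higher became 1 with the mean of all probes, 0 with normexp, 0 with the random block and 8 without both 4OHT arrays, a setting chosen after seeing the data, and 2 to 6 with an array left out. The 1 lower became 0, 0, 0 and 2 in the same settings and 1 to 2 with an array left out. Between uncultured PGCs and lines, 0 higher became 2 without both 4OHT arrays and 0 to 1 with an array left out, and 2 lower became 0 with normexp, 1 with quantile normalization, 0 with no filter, 1 with the random block and 0 to 3 with an array left out. Over the day 2 terms, 0 calls became 10 with the mean of all probes, 31 with normexp, 24 with no filter, 6 with slide in place of 4OHT and 0 to 61 with an array left out. Over the constructs, 0 became 2 with quantile normalization. Signs turned for Col2a1 with the mean of all probes (0.29), Col14a1 with normexp (-0.10) and Col9a3 of uncultured PGCs against lines with normexp (0.44). Calls over all genes fell with normexp too. Between cultured PGCs and lines it called 2236 of 21771 genes higher and 4329 lower, against 3463 and 5807 from the deposited intensities. Calls over all genes also fell with normexp in both comparisons with uncultured PGCs. For the other settings the share of all genes called is not given, so those counts cannot be set against it. The causes were not tested.

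Of the calls over all genes between cultured PGCs and lines, 37.4% were higher, and 47.8% with quantile normalization. For cultured against uncultured PGCs the share was 41.6%, and 21.2% with normexp, and for uncultured PGCs against lines 56.6%, and 70.7% with normexp. The probe-by-probe fit and the other scalings of single-array differences were added after seeing the data. No paired analysis was possible because each group has 1 array and the labels carry no replicate numbers. Signal over background limits the dim chains, most on the 4OHT, parental and uncultured arrays.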
